A study of Homo sapiens with 4 samples.

Results

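The region studied is the stretch of chromosome 8 around MYC, from 126000000 to 129500000 in the build hg38, in MCF10A, a line of immortalised human breast epithelial cells that do not form tumours. Its members are all peaks with a midpoint between these bounds, which is a rule of position and uses no measured value. It holds 719 of the 573714 peaks deposited for chromosomes 1 to 22 and X, made up of 80 of 67781 peaks of H3K4me3, 106 of 112731 of H3K79me2 and 533 of 393202 of H3K27me3. The 3 marks come from chromatin immunoprecipitation followed by sequencing, with 1 library each and antibodies against trimethylated lysine 4, dimethylated lysine 79 and trimethylated lysine 27 of histone H3. A further library of input DNA is labelled, and no file of it was used here. All 4 libraries are of MCF10A cells grown in mammary epithelial medium with cholera toxin at 100 ng/ml, so the comparison is between the stretch and the rest of chromosome 8 within each mark. Since each mark has 1 library, no difference has a replicate check and no test was made.

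MYC encodes a transcription factor that drives cell growth and division. It lies in a gene-poor landscape of long non-coding RNA (lncRNA) genes, among them PVT1, and inherited variants across this landscape have been linked to cancers of the breast, prostate and colon. H3K4me3 marks the starts of active or poised genes, H3K79me2 is laid down by DOT1L over the first part of transcribed genes, and H3K27me3 is laid down by Polycomb over silent chromatin. MYC and PVT1 are transcribed in the same direction, towards higher coordinates. In the files a peak has a width and a fold, the peak caller's own ratio of signal to its background, which is used here only within the list of 1 mark. The authors' H3K27me3 list is of narrow peaks and the other lists are of broad peaks, so covered lengths are not compared between marks.

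The labelled cell type was checked against marker genes. Of 11 basal mammary genes, 10 had H3K4me3 and 10 had H3K79me2 at an end of the gene record, where 67.9% and 50.9% of all protein-coding records did. H3K27me3 was called at 0 of the 11, where 9.1% of all protein-coding records had it, so its absence says little about the cell type. H3K4me3 was also called at 2 of 5 luminal, 1 of 5 fibroblast, 2 of 5 immune and 1 of 4 endothelial genes. H3K79me2 was called at 0 of 5 luminal, 0 of 5 fibroblast, 0 of 5 immune and 1 of 4 endothelial genes, and H3K27me3 at 1 of 5 luminal, 2 of 5 fibroblast, 0 of 5 immune and 0 of 4 endothelial genes. Read depth is unknown from peak lists. As background, MCF10A is known to carry a gain of the MYC region, and peak lists do not measure copy number, so its part in the folds and ranks given here was not tested.

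Most H3K4me3 and H3K79me2 peaks lay in the inner part of the stretch, and most H3K27me3 peaks lay outside it. From the left end of LRATD2 to the right end of PVT1, which is 44.3% of the length, lay 73.8% of the H3K4me3 peaks, 83% of the H3K79me2 peaks and 13.5% of the H3K27me3 peaks. All 11 H3K4me3 peaks with −log10 q of at least 5 lay in it, as did both H3K79me2 peaks past that threshold. These limits were chosen after the values were seen. In this part 33 of 59 H3K4me3, 10 of 88 H3K79me2 and 19 of 72 H3K27me3 peaks passed q of 0.05 or below. In the whole stretch 39 of 80 (48.8%), 11 of 106 (10.4%) and 131 of 533 (24.6%) did, in the same order. The shares in the rest of chromosome 8 were 45.2%, 12% and 31.7%, so most H3K79me2 and H3K27me3 peaks did not pass in either. Within this part H3K27me3 was uneven, with 67 peaks between LRATD2 and CCAT1, or 103 per Mb, of up to 4.06-fold and covering 2.65%, of which 19 passed q of 0.05 or below. In the 894 kb from the left end of CCAT1 to the right end of PVT1, H3K27me3 had 5 peaks, the highest of 2.73-fold, and 0 of them passed q of 0.05 or below.

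**Figure D1:**
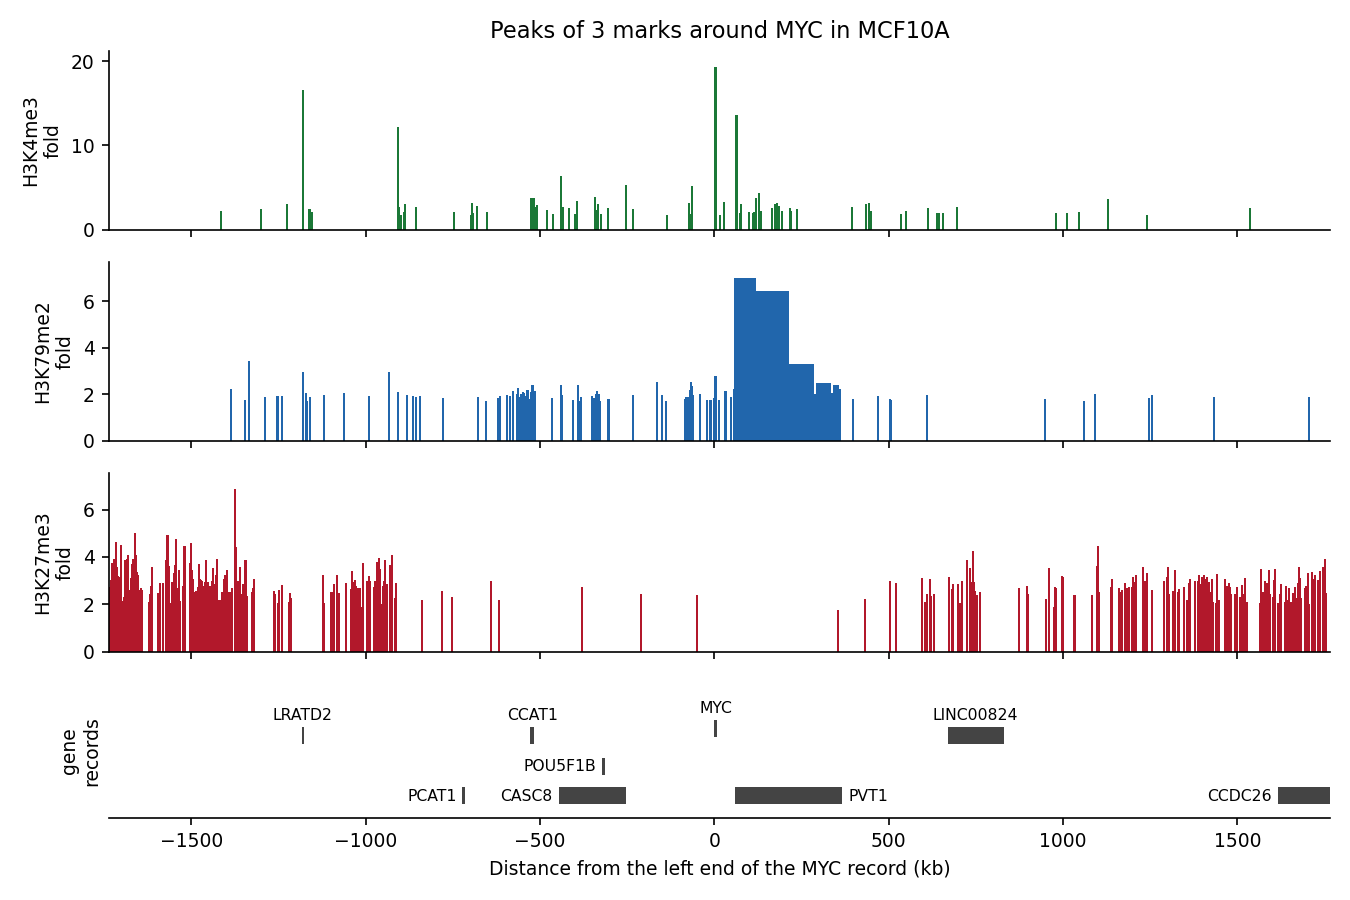
Fold of each peak of H3K4me3, H3K79me2 and H3K27me3 over the caller's background (vertical axes, 1 library each) against the distance from the left end of the MYC record in kb, with selected gene records below; each bar is 1 peak, and narrow peaks are drawn at a minimum width. H3K4me3 reached 19.3-fold at MYC, H3K79me2 reached 7-fold at PVT1, and H3K27me3 peaks lay mostly in the outer parts.

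MYC had the strongest H3K4me3 peak of the stretch and an H3K79me2 peak of 2.78-fold. The H3K4me3 peak ran from 127733347 to 127743478, was 10132 bp wide at 19.3-fold, and covered 100% of the MYC record (127735434 to 127742951). Its H3K79me2 peak ran from 127733541 to 127741633, 8093 bp at 2.78-fold, over 82.5% of the record, and 0 H3K27me3 peaks touched the gene. Among the 479 protein-coding records of chromosome 8 with H3K4me3 at an end, MYC ranked 7th by the width of this peak, against a median width of 3781 bp. It ranked 103rd by H3K4me3 fold, where the median was 16-fold, and 281st by H3K79me2 fold, where the median was 3.17-fold. Records with no H3K79me2 peak at an end entered as 0-fold, so this is not a median over records with that mark alone. The same H3K4me3 peak reached the right end of CASC11, a lncRNA gene to the left of MYC, covering 81% of the window within 1000 bp of that end.

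PVT1, a long lncRNA gene next to MYC that hosts microRNAs and is often amplified with it in cancers, stood out through H3K79me2. Its record spans 307 kb, from 127794524 to 128101256, and H3K79me2 covered 294 kb of it, or 95.9%. This was the largest covered length among all 18177 lncRNA records of chromosomes 1 to 22 and X, ahead of MIR100HG with 232 kb and LINC-PINT with 215 kb, and among the 2448 gene records of chromosome 8. Longer records can hold more, so the share was also ranked among lncRNA records of at least 100000 bp that share no base with a protein-coding record. There PVT1 was second of 677, behind LINC00673 with 99.7% covered, against a median of 0.128%.

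The fold of H3K79me2 along PVT1 stepped down from left to right. The first peak, from 127792847 to 127854101, was 61.3 kb long at 7-fold, the highest fold of chromosome 8 and the fifth of the 112731 peaks in the list. To its right, the other long peaks were of 94.2 kb at 6.43-fold, 71 kb at 3.28-fold, 44 kb at 2.46-fold and 16.2 kb at 2.4-fold. The next peak of chromosome 8 by fold, at AGO2, had 6.98-fold, so the lead was narrow. Where gaps of up to 3000 bp were bridged, the H3K79me2 block reached 307 kb, from 127787779 to 128094678, the longest of 2173 such blocks on chromosome 8 and the 10th of 49203 in the list. Of the 8 H3K79me2 peaks with midpoints in PVT1, 4 passed q of 0.05 or below, and 2 of these, at 7- and 6.43-fold, had −log10 q of at least 5.

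H3K4me3 peaks in PVT1 lay in its left part. The peak at the left end, from 127793709 to 127803225, was 9517 bp wide at 13.6-fold and also held the microRNA record MIR1204. Of the 20 H3K4me3 peaks with midpoints in the record, with the record cut into 10 equal parts, 4 lay in the leftmost part and 0 in the last 4 parts. They had a median of 2.32-fold, and 10 of them passed q of 0.05 or below. H3K79me2 still covered 71.9% to 100% of each of the last 4 parts. The single H3K27me3 peak in PVT1 was 186 bp long at 1.74-fold, in the last of the 10 parts. The microRNA records MIR1205, MIR1206 and MIR1207 inside PVT1 lay wholly within H3K79me2 peaks and held no H3K4me3, and MIR1208, to the right of PVT1, held no peak of any mark.

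**Figure D2:**
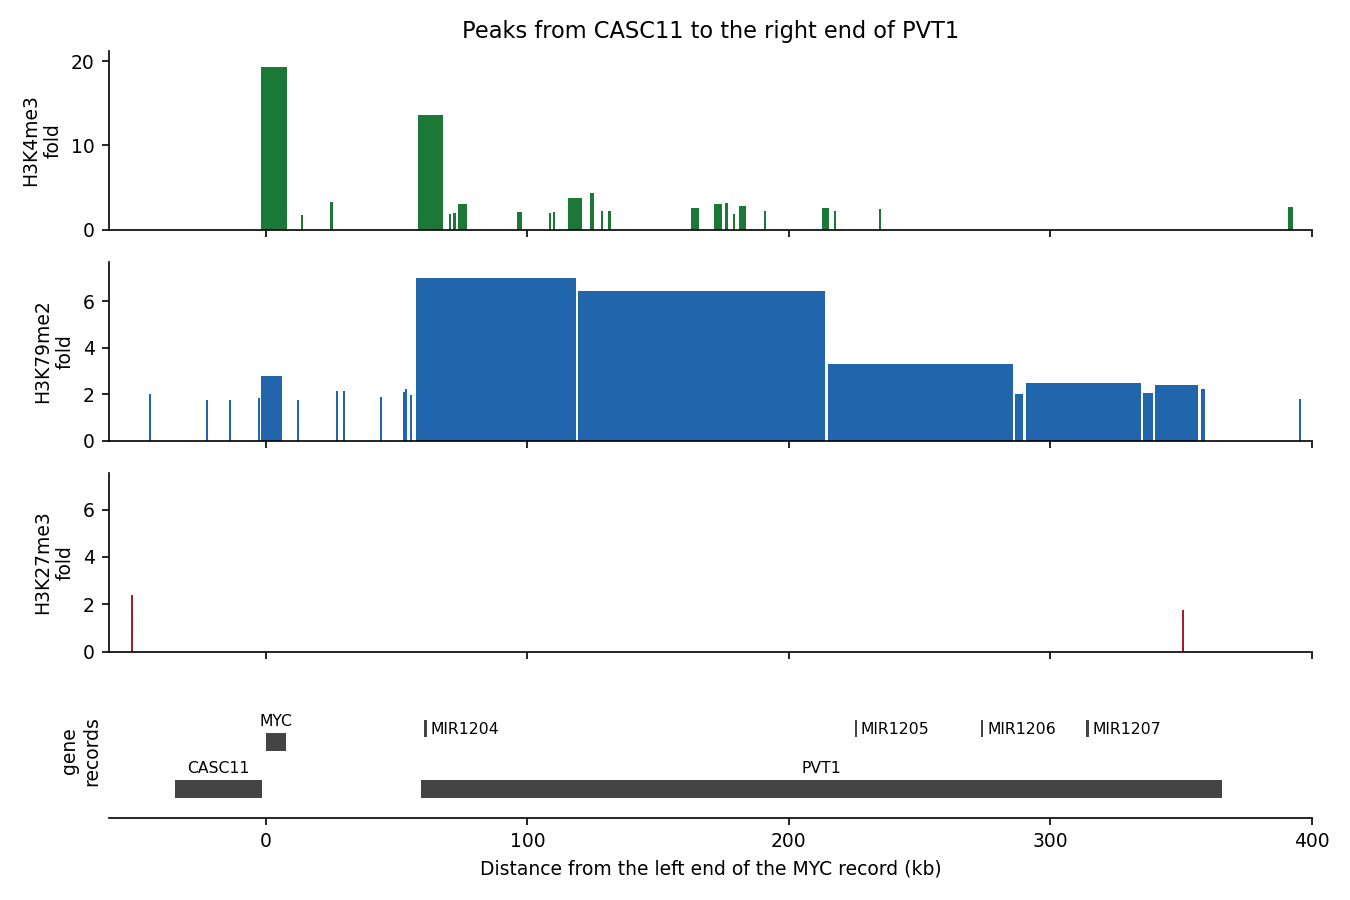
The same folds from the CASC11 record to beyond the right end of PVT1, against the distance from the left end of MYC in kb; bars are peaks of 1 library per mark, drawn at a minimum width where narrow. H3K79me2 at MYC was 2.78-fold, and along PVT1 it stepped down from 7- to 2.4-fold while H3K4me3 peaks ended before the last 4 of 10 equal parts of the record.

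CCAT1, a lncRNA gene first described in colon cancer, had the widest H3K4me3 peak of chromosome 8 at a low fold. The peak ran from 127205326 to 127220496, 15171 bp at 3.72-fold, and covered 100% of the CCAT1 record (127207382 to 127219268). It ranked 30th by width of the 67781 H3K4me3 peaks in the list and 20461st by fold. The next widest peak of chromosome 8, 14786 bp at PLEC, had 18.7-fold. The first rank depends on how peaks were split. With gaps of up to 3000 bp bridged, the H3K4me3 block at CCAT1 was 20.4 kb long. It ranked 3rd of 2607 such blocks on chromosome 8 and 86th of 57097 in the list. H3K79me2 covered 82% of the CCAT1 record, mostly through a peak of 8156 bp and 2.39-fold from 127210098 to 127218253. Bridged across 3000 bp, the H3K79me2 peaks formed a block of 51.3 kb, from 127170227 to 127221574, that also held CASC19, a neighbouring lncRNA gene with H3K79me2 over 47.7% of its record and no H3K4me3 peak. Of the 17 H3K79me2 peaks in this block, the one of 2.39-fold passed q of 0.05 or below, with −log10 q of 1.43.

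CASC8 held several separate peaks of both active marks, of which 7 of H3K4me3 and 1 of H3K79me2 passed q of 0.05 or below. The H3K79me2 peaks there had a median of 1.93-fold and a maximum of 2.38-fold. CASC8, a lncRNA record of 192 kb from 127289676 to 127482139, had 11 H3K4me3 peaks over 10.2% of its length and 15 H3K79me2 peaks over 7.62%. Its strongest H3K4me3 peak, 3302 bp at 6.33-fold, lay inside its left end from 127292305, and another, 1869 bp at 5.33-fold, lay inside its right end up to 127479840. Neither reached a window at an end, so CASC8 was not called for H3K4me3 by its end windows. POU5F1B, a retrocopy of the pluripotency gene POU5F1 and a short record inside CASC8, had no peak of any mark in its record (127413447 to 127417224). CCAT2, a short lncRNA gene inside CASC8, was covered over 100% by an H3K4me3 peak of 5373 bp and 2.99-fold, and CASC21 had an H3K4me3 peak of 2524 bp and 3.87-fold at its right end. In the 253 kb between CASC8 and MYC, the strongest H3K4me3 peak lay at the right end of LOC105375754, with 4935 bp at 5.14-fold and its midpoint 65.9 kb to the left of the MYC record.

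**Figure D3:**
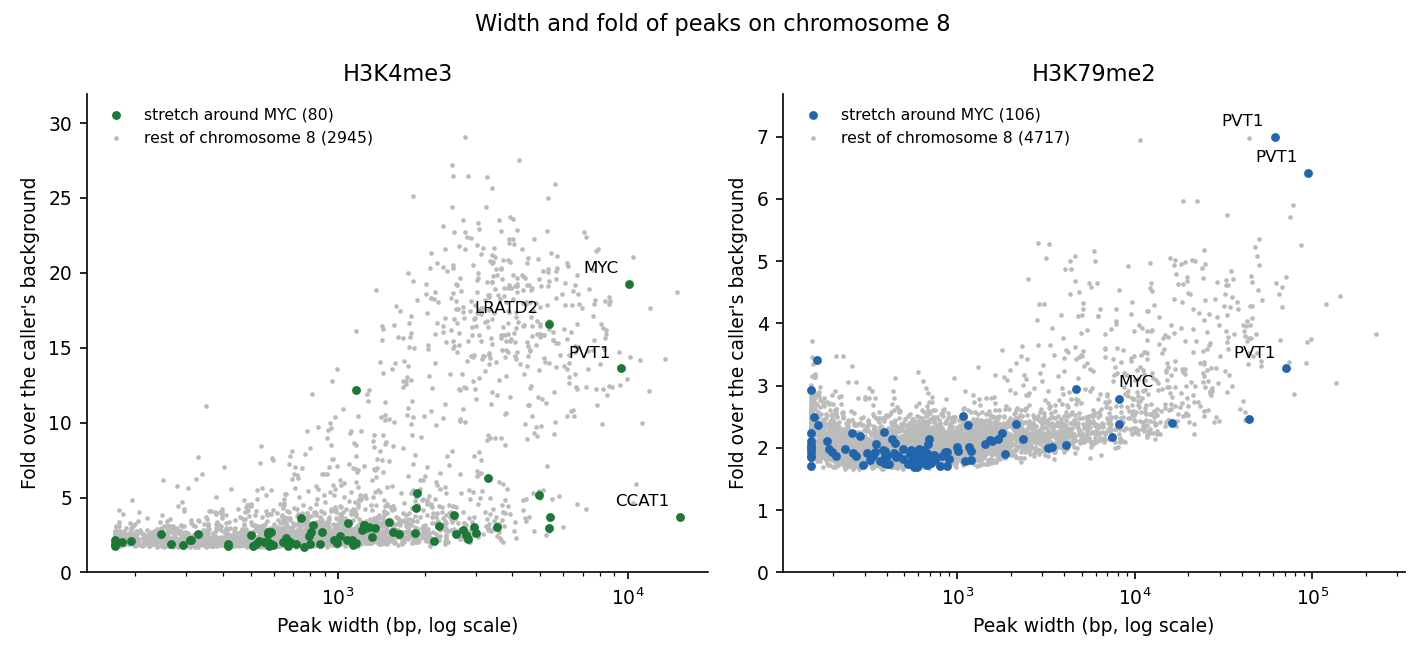
Width (log axis, bp) and fold of every H3K4me3 and H3K79me2 peak on chromosome 8, with the stretch in colour and the rest of the chromosome in grey; 1 point is 1 peak of 1 library. CCAT1 lay at 15171 bp and 3.72-fold, beyond all other H3K4me3 peaks in width, and PVT1 held the H3K79me2 peak of 7-fold.

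LRATD2, the leftmost protein-coding gene of the stretch, had the second strongest H3K4me3 peak, 5363 bp at 16.6-fold from 126553858 to 126559220. It covered 87.1% of the window at the right end of the record and 0% at the left end. An H3K79me2 peak of 4677 bp and 2.95-fold covered 77.5% of the record. The same H3K4me3 peak covered the left end of LOC105375751, a lncRNA record of 463 kb that extends to the right. Inside that record and inside LOC105375753 lay the fourth strongest H3K4me3 peak of the stretch, narrow at 1152 bp but of 12.2-fold, from 126824430 to 126825581. LOC105375751 also held 65 H3K27me3 peaks over 3.63% of its length. PCAT1, a lncRNA gene known from prostate cancer, had no peak of any mark, and the H3K4me3 in the neighbouring records PCAT2 and PRNCR1 was 1 shared peak of 2.04-fold.

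H3K27me3 was densest to the left of LRATD2. To the left of LRATD2 it had 222 peaks, or 402 per Mb, covering 11% of 552 kb, and to the right of PVT1 it had 239, or 171 per Mb, covering 4.17% of 1398.7 kb. The rest of chromosome 8 had 173 per Mb covering 5.25%, so the part right of PVT1 was not denser than it, and 1 bin of 100 kb there, from 128500001, held 0 peaks. The highest, from 126359047 to 126360108, was 1062 bp at 6.87-fold, ranked 13th of the 25016 on chromosome 8, and touched no gene record. It was the only H3K27me3 member with −log10 q of at least 5. The 10 H3K27me3 peaks with the highest fold lay left of LRATD2 except for 1 of 4.46-fold at 128832298 to 128832631. In the right part, LINC00824 held 25 H3K27me3 peaks of up to 4.27-fold and 1 H3K4me3 peak of 2.67-fold, and the lncRNA record CCDC26, which runs past the right bound, held 110 over its whole length, those past the bound included, and no H3K4me3.

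The inner part held the longest interval of chromosome 8 without an H3K27me3 peak. It ran over 402 kb, from 127683789 to 128085716, and contained MYC and most of PVT1. The next longest such gap in the stretch, 238 kb from 127113952 to 127351607, held CCAT1 and ranked 15th of 25015 on the chromosome. Over the 35 bins of 100 kb, H3K4me3 and H3K79me2 coverage went together, with a Spearman rho of 0.64 and a Pearson r of 0.52. H3K27me3 went the other way, with a rho of −0.68 against H3K4me3 and −0.69 against H3K79me2, and an r of −0.44 and −0.31. These are descriptions over neighbouring bins of 1 library per mark, which share the library and its depth.

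**Figure D4:**
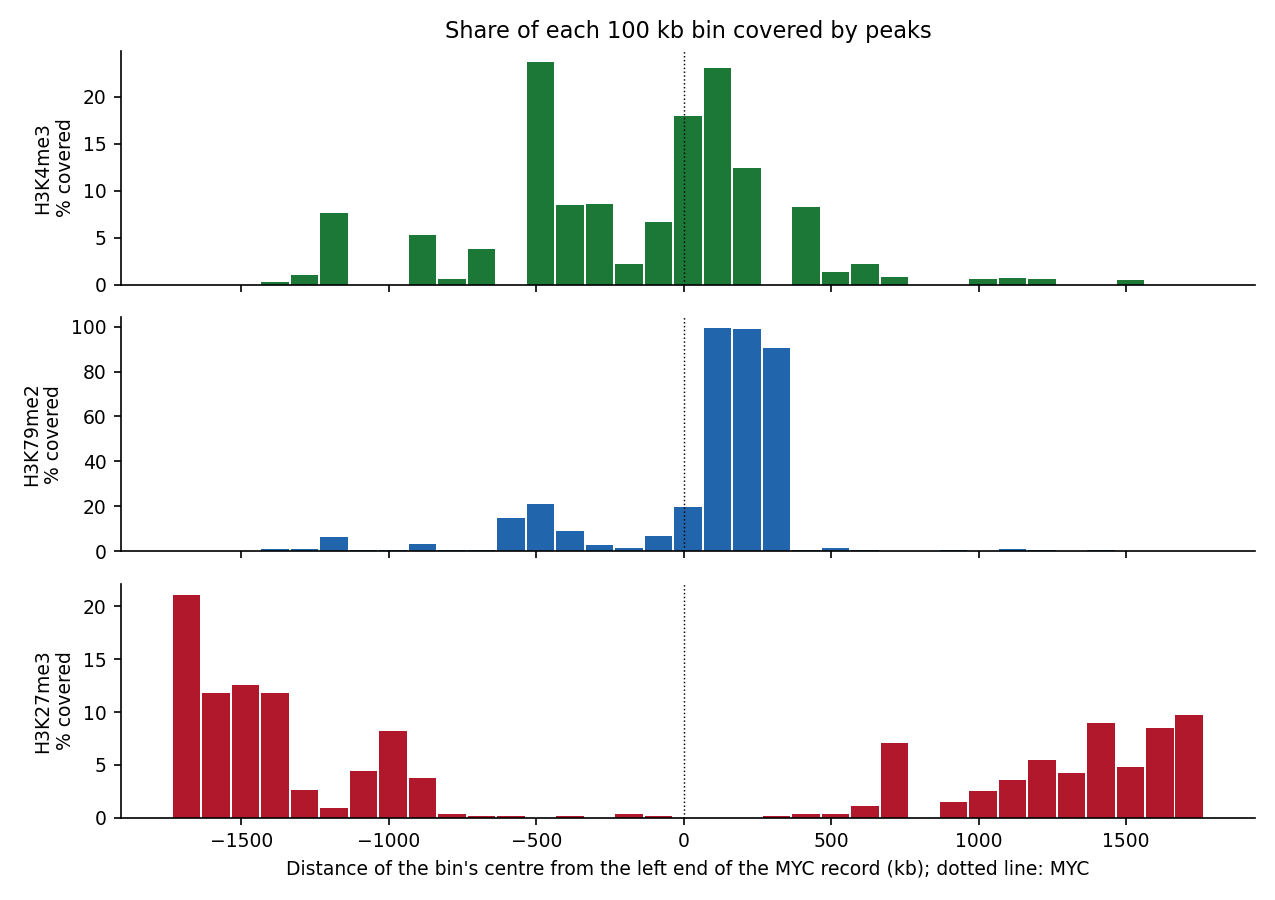
Percent of each 100 kb bin covered by peaks of each mark, against the distance of the bin's centre from the left end of MYC in kb; the dotted line marks MYC, and each bar is 1 bin of 1 library. H3K79me2 covered 90.6% to 99.2% of the 3 bins that lie in PVT1, and H3K27me3 reached 21.1% in the leftmost bin.

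Outside the active pair, few peaks of different marks met, in the stretch as in the rest of chromosome 8. Of the 80 H3K4me3 peaks, 35 shared at least 1 bp with H3K79me2, 43.8% (95% exact binomial interval 32.7 to 55.3), against 34.5% (32.8 to 36.2) in the rest of chromosome 8, so the interval of the stretch holds the value of the rest. All 20 H3K4me3 peaks with midpoints in PVT1 were among the 35, and without PVT1 the share was 15 of 60, or 25% (14.7 to 37.9), an interval that also holds the value of the rest. Leaving out PVT1 was chosen after the values were seen. With H3K27me3, 1 of the 80 overlapped, 1.25% (0.0316 to 6.77), against 6.49% (5.62 to 7.44) in the rest. This interval too holds the value of the rest. The H3K4me3 peak that overlapped, at 128713221 to 128713485, had 1.92-fold. Of the 533 H3K27me3 peaks, 5 overlapped H3K79me2, 0.938% (0.305 to 2.18), near the 0.993% (0.872 to 1.12) in the rest. These intervals cover counting error only and treat peaks as independent, which neighbouring peaks are not.

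Set against the rest of chromosome 8, the stretch was near it in peak number for H3K4me3 and H3K79me2 and had fewer H3K4me3 peaks of high fold. H3K4me3 had 22.9 peaks per Mb in the stretch and 20.8 in the rest, a ratio of 1.1 (95% exact binomial interval 0.868 to 1.37). It was 0.903 without PVT1, so the side of 1 on which it falls is not settled. H3K79me2 had 30.3 in the stretch and 33.3 in the rest, a ratio of 0.909 (0.742 to 1.1), and H3K27me3 had 152 in the stretch and 173 in the rest, a ratio of 0.88 (0.806 to 0.959). Such intervals cover counting error only and treat peaks as independent, which neighbouring peaks are not. The H3K27me3 interval therefore does not settle a difference. The 39 other windows of the same length along chromosome 8 held 68 to 2587 H3K27me3 peaks, with a median of 416. Of these windows, 23 held fewer than the stretch and 16 held more. For H3K4me3 29 held fewer and 10 more, and for H3K79me2 22 held fewer and 17 more. The H3K27me3 ratio was 1.15 with the stretch widened by 250 kb on both sides and 0.619 with it narrowed by as much, so it depends on the bounds. Of H3K4me3 peaks, 8.75% had at least 5-fold in the stretch and 19.8% in the rest, while the medians were 2.48-fold in the stretch and 2.49-fold in the rest. Medians of H3K79me2 were 1.94-fold in the stretch and 2.09-fold in the rest, and of H3K27me3 2.69-fold in the stretch and 2.75-fold in the rest. H3K79me2 peaks of at least 5-fold were 1.89% in the stretch, both in PVT1, and 0.466% in the rest.

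By covered length, PVT1 decided the value of H3K79me2. H3K79me2 covered 11% of the stretch and 8.99% of the rest of chromosome 8, but PVT1 held 76.5% of the covered bases, and the stretch without the PVT1 record was covered over 2.82%. H3K4me3 covered 3.92% of the stretch and 2.82% of the rest, and 3.01% of the stretch without PVT1. H3K27me3 covered 3.92% of the stretch and 5.25% of the rest, and 4.29% of the stretch without PVT1. This H3K27me3 ratio of 0.746 was 1.07 with the stretch widened by 250 kb on both sides and 1.09 against the other chromosomes, so its direction depends on the bounds and on what it is set against.

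The stretch has 3 protein-coding records, fewer than 38 of the 39 other windows of 3.5 Mb laid end to end along chromosome 8, which had a median of 15. Its H3K4me3 coverage was above that of 32 of the 39 windows, whose median was 2.56% and range 0.585% to 6.13%. This held for all peaks of the list. Against the rest of chromosome 8, the covered ratio of H3K4me3 was 1.07 without PVT1 and 0.725 with fold of at least 5. For H3K79me2 27 of the 39 windows lay below the stretch, with a median of 7.77% and a range of 0.38% to 18.8%. For H3K27me3 21 of the 39 did, with a median of 3.54%. In the 7 windows with up to 8 protein-coding records, a limit chosen after the values were seen, H3K4me3 covered 0.585% to 2.06% and H3K79me2 0.38% to 9.21%. The stretch, with 3.92% and 11%, lay above these ranges, but without PVT1 its H3K79me2 coverage of 2.82% lay inside the range and below its median of 4.58%. For H3K27me3 the 7 windows had 0.488% to 28%, with the stretch inside.

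**Figure D5:**
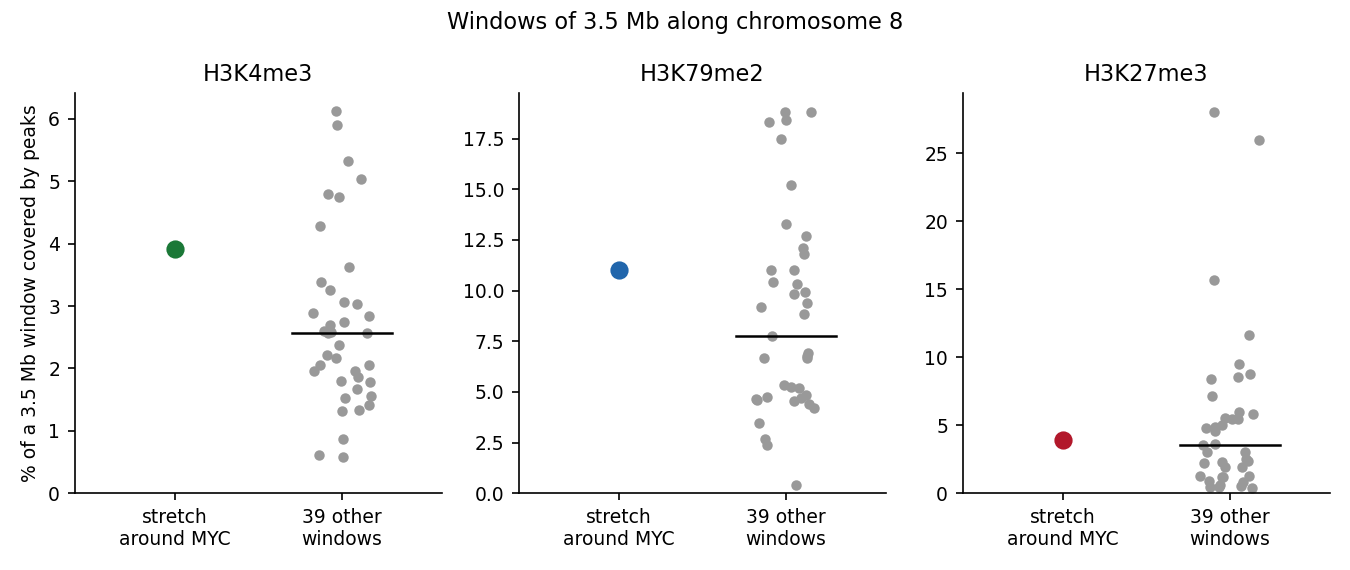
Percent covered by peaks of each mark in the stretch (left, coloured) and in the 39 other windows of 3.5 Mb along chromosome 8 (right, grey, black line at their median); each point is 1 window of 1 library and the sideways spread of grey points has no meaning. The stretch had 3.92% for H3K4me3, 11% for H3K79me2 and 3.92% for H3K27me3.

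A gene record counted as having H3K4me3 or H3K27me3 where 25% or more of the bases within 1000 bp of one of its ends lay in peaks. For H3K79me2 the bases were the first 5000 inside the record from an end, or all of a shorter record. Of the 44 records, 12 were called for H3K4me3 (27.3%), against 36% of all 59098 records of chromosomes 1 to 22 and X, 15 for H3K79me2 (34.1%, against 27%) and 1 for H3K27me3 (2.27%, against 7.66%). Of the 15 with H3K79me2, 8 were PVT1 and 7 further records inside it, of which MIR1204, MIR1205, MIR1206 and MIR1207 are microRNAs. Of the 25 lncRNA records, 9 had H3K4me3 (36%, against 28.8% of all lncRNA records), 7 had H3K79me2 (28%, against 14.9%) and 0 had H3K27me3 (against 7.97%). Of the 3 protein-coding records, MYC and LRATD2 had H3K4me3 and H3K79me2, where 67.9% and 50.9% of all protein-coding records did, and 0 had H3K27me3, against 9.1%. The record with H3K27me3 was MIR3686, inside CCDC26. H3K4me3 peaks that lay in a lncRNA record and in no protein-coding one were 66.2% in the stretch and 13.7% in the rest of chromosome 8. Those in a protein-coding record were 2.5% in the stretch and 56.5% in the rest. The 3 protein-coding records of the stretch are of 6036, 3778 and 7518 bp, so few peaks of any mark could lie in one. The lncRNA-only shares were also higher in the stretch for H3K79me2, 49.1% against 6.93%, and for H3K27me3, 31.5% against 15.3%. These shares therefore do not set H3K4me3 apart.

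The peaks nearest to the bounds are given here by fold. Their distances are not compared between marks, since a list with more peaks tends to have one nearer to any position. The H3K4me3 members nearest to the bounds had 2.17-fold on the left and 2.58-fold on the right, and the first peaks outside had 3.27- and 2.83-fold. For H3K79me2 the nearest members had 2.24- and 1.88-fold and the first outside 1.82- and 1.74-fold. For H3K27me3 they were members of 2.71- and 2.49-fold and first peaks outside of 3.72- and 2.32-fold. The nearest protein-coding gene on the left is TRIB1, a pseudokinase gene 562 kb outside, with H3K4me3 of 19.9-fold and H3K79me2 of 2.98-fold at an end. On the right it is GSDMC, a gasdermin gene 205 kb outside, with H3K4me3 of 3.56-fold and no H3K79me2 there.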

How the data were processed

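Chromatin immunoprecipitation libraries of MCF10A for 3 marks, 1 library each, were taken as deposited peak lists. The submitters' processing notes name Bowtie2 2.3.1, MACS2 2.1.1 and the build hg38, per the labels. Peak names carry a p threshold of 0.05. The deposited fold per peak is the authors' ratio over the caller's background, and the deposited −log10 p and −log10 q are the caller's own. Start and end of a peak are deposited positions. Whether the input was the control, and the handling of duplicates, are not given in the sources used here. Read depth is unknown, so no detection floor is given.

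Peaks were assigned by midpoint, covered lengths were taken from the union of peaks, and the rest of chromosome 8 spans its first to last base in a peak (141.5 Mb without the stretch). Genes came from RefSeq's GRCh38.p14 table, which gives no strand, so both ends of each record were examined. Python 3.11.15, numpy 2.4.6, pandas 2.3.3 and SciPy 1.17.1 were used, and the interval functions were checked on simulated intervals. Genes named were CCAT1, CASC8, POU5F1B, MYC and PVT1, records meeting an H3K4me3 peak with −log10 q of at least 5, the nearest protein-coding neighbours, and the genes at the 10 highest and 5 longest peaks of each list. Others (PCAT1, PCAT2, PRNCR1, CASC19, CCAT2, LINC00824, CCDC26, MIR1205 to MIR1208, MIR3686, AGO2, PLEC and the lncRNA genes ranked beside PVT1) were named after their values were seen. The members and lists were chosen with earlier results of these data known. Alternatives were stricter peak thresholds, shifted bounds, other reference sets, joined peaks, other call rules and bin sizes.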

Additional observations from a re-analysis of the deposited data

How the results depend on the processing

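Values were recomputed under stricter peaks, other bounds, other sets to compare with, bridged peaks, other rules for records and overlaps, and smaller bins. Of 114 such values, 56 stayed near the value in the text. Near meant within its binomial interval, within 1.5 times it for counts and covered lengths, or close in rho. A further 36 moved, and 22 changed direction, some from values close to no difference. Direction was looked at only for ratios and differences of median fold, so the 36 can hold further changes of direction. The H3K4me3 overlap with H3K79me2 without PVT1 is 1 of the 36, at 25% against 34.5% in the rest of chromosome 8. The cause of these changes was not tested. Leaving out PVT1 was chosen after seeing the data. Each mark has 1 library and read depth is unknown, so the precision of any value is unknown. No paired analysis was possible because each mark has 1 library. Under stricter thresholds and other call or overlap rules, records and overlaps were counted in the stretch alone. The same counts over all records or the rest of chromosome 8 were not made, so these values cannot show whether the stretch differs.

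With −log10 q of at least 5, the ratio of peaks per Mb, stretch over rest, was 0.63 for H3K4me3 and 0.188 for H3K27me3, and the covered ratio was 2.41 for H3K79me2 and 0.203 for H3K27me3. The difference in median fold, stretch minus rest, was −7.21 for H3K4me3, 2.07 for H3K79me2 (2 peaks) and 1.1 for H3K27me3 (1 peak). Records of the stretch with H3K79me2 numbered 3 and with H3K27me3 0, and 27.3% of its H3K4me3 peaks overlapped H3K79me2. No share over all records or the rest was computed at this threshold.

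With fold of at least 5, the stretch kept 7 H3K4me3, 2 H3K79me2 and 2 H3K27me3 peaks, and both H3K79me2 peaks lay in PVT1. The values of the last 2 marks thus rest on 2 peaks each. The ratio of peaks per Mb was 0.485 for H3K4me3, 3.68 for H3K79me2 and 0.16 for H3K27me3. The covered ratio was 0.725, 9.83 and 0.13 for the same marks. The median fold differed by −2.49, 1.47 and 0.558, again in that order. Records of the stretch numbered 7 for H3K4me3, 3 for H3K79me2 and 0 for H3K27me3, and 14.3% of its H3K4me3 peaks overlapped H3K79me2. Here too no share over all records or the rest was computed. With q of 0.05 or below, the H3K27me3 ratio of peaks per Mb was 0.682, and the median fold differed by −1.21 for H3K4me3, −0.0501 for H3K79me2 and −0.0924 for H3K27me3. Under each of these 3 thresholds, H3K4me3 peaks overlapping H3K27me3, and H3K27me3 peaks overlapping H3K79me2, were 0%.

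For H3K27me3 the ratio of peaks per Mb was 1.15 with the stretch widened, 0.619 narrowed, 1.17 against the other chromosomes, 1.08 bridged and 0.963 without PVT1. For H3K4me3 it was 0.995 against the other chromosomes, 0.904 bridged and 0.903 without PVT1. For H3K79me2 it was 1.23 bridged and 1.05 narrowed, and the covered ratio without PVT1 was 0.314. The covered ratio of H3K27me3 was 1.07 widened and 1.09 against the other chromosomes. The median fold of H3K4me3 differed by 0.0273 with the stretch widened, 0.0414 against chromosome 8 right of its longest gap without a peak, and 0.0271 without PVT1. Against the other chromosomes the median fold differed by −0.195 for H3K79me2 and 0 for H3K27me3. Records of the stretch with 500 bp of peaks anywhere numbered 19 for H3K4me3 and 11 for H3K27me3, and 10 had H3K27me3 over at least 1 bp. The share of all records under these rules was not computed. Counting overlaps of at least 50% of a peak, 30% of H3K4me3 peaks shared H3K79me2, and counting overlaps of at least 1 bp without PVT1, 25% did. In bins of 50 kb, rho was 0.454 for H3K4me3 with H3K79me2 and −0.559 for H3K79me2 with H3K27me3.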
